A study of Mus musculus with 2 samples.

Results

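The mitosis genes are 34 genes chosen by name for their roles in cell division, and all 34 were found among the 13373 genes measured. They comprise 4 genes of the mitotic cyclins and Cdk1, 7 mitotic kinases and checkpoint genes, 3 genes of the chromosomal passenger complex, 3 of the anaphase-promoting complex and ubiquitination, 5 of the kinetochore and centromere, 7 of the spindle, 3 of cytokinesis and 2 of chromosome structure. Their transcripts were followed in single cells of intestinal organoids from Apc mutant mice, over all cells, in cells classed as dividing and in the remaining cells. Organoids are small epithelial cultures that hold stem cells and their descendants, and Apc is the tumour suppressor whose loss keeps Wnt signalling on. Cells came from the strain C57Bl at an age of 3 to 4 months. One library was treated with DBZ, an inhibitor of gamma-secretase, the protease that cuts Notch receptors to activate them, and the other with its vehicle DMSO. The treatment text of both samples lists 300 nM 4-OH-tam and 10 uM DBZ, and the titles were followed for the group. The labels do not name the Apc allele, the driver of any recombinase or the number of mice.

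Mitosis genes are switched on late in the cell cycle. Cyclin B binds the kinase Cdk1 to start mitosis, kinetochores and the spindle sort the chromosomes, and the anaphase-promoting complex with Cdc20 then marks cyclin B and other proteins for destruction so that the cell can divide. Many of these genes share a repressive complex (DREAM) that holds them silent in resting cells, and activators (B-Myb, FoxM1 and the CCAAT-binding factor NF-Y) that raise them in G2. In the intestine they mark the dividing cells of the crypt, and cells that mature into Paneth, enteroendocrine or goblet cells leave the cycle.

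Promoters were compared first, because these genes are known to share those regulators. RefSeq promoters of 300 bases (250 before to 50 after the start, build GRCm38.p6) were matched for 29 of the 34 genes, giving 31 promoters. Searched on both strands were CCAAT, the letters bound by NF-Y, and TTTGAA and TTTAAA, letters of the cell cycle homology region at which DREAM and B-Myb act. CCAAT was found in 80.6% of the 31 promoters, against 37.4% of all 32851 promoters of the same length. At least 2 copies of it were present in 54.8% and 11.7%. TTTGAA was found in 77.4% against 17.9%, and either TTTGAA or TTTAAA in 87.1% against 27.6%. Both kinds of motif stood together in 77.4% of the promoters of mitosis genes and in 10.7% of all promoters. TTTAAA alone was found in 25.8% of the promoters of mitosis genes and 13.2% of all promoters. Of the 38 promoters of S phase genes, 71.1% held CCAAT, while 10.5% held the TTTGAA letters. TTTAAA stood in 13.2% of those. Of 50 promoters of other G2 and M genes, 64.0% held CCAAT, 58.0% TTTGAA and 44.0% both kinds of motif. These motifs were thus not particular to the 34 genes. Before the start alone, TTTGAA stood in 32.3% of the promoters of mitosis genes and 16.0% of all promoters. Matches that share letters were each counted, and a match is a run of letters and not a measured binding site.

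The stretches from 120 bases before the start to 30 bases after it are shown for 8 genes on which the results below turn, 5′ to 3′ on the strand of the gene. Capitals mark these motifs, and a motif on the other strand appears as its reverse complement. The first 6 hold both kinds of motif, and Nusap1 and Mad2l1 hold neither.
Ccnb1: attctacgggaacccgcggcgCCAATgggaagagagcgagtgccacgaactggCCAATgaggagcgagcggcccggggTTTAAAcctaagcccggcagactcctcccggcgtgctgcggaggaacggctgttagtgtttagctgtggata
Ccnb2: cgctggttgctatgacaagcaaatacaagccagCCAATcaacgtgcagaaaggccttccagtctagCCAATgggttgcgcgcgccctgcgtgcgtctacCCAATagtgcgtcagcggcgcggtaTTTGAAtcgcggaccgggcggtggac
Cdk1: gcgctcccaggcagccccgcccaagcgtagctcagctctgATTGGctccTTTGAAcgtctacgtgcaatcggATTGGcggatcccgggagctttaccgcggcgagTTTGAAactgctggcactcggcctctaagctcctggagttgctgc
Cdc20: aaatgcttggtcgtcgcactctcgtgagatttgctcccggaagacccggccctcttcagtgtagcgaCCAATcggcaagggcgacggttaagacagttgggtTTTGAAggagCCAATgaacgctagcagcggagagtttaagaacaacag
Ube2c: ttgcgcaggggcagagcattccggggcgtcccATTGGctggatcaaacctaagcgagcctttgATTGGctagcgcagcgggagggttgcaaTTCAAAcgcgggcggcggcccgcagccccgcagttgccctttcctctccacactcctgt
Top2a: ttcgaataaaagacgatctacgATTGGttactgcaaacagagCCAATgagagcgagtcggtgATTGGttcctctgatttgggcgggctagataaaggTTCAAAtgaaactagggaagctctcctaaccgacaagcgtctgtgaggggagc
Nusap1: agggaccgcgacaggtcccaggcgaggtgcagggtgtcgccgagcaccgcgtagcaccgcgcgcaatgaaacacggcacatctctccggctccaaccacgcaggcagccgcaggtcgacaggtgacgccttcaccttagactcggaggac
Mad2l1: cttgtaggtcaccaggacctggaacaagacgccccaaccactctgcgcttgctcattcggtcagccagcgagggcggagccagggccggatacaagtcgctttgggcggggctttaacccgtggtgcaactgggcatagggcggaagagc
On GRCm38.p6 they lie at chr13:100786457-100786606 (Ccnb1, minus strand), chr9:70421525-70421674 (Ccnb2, minus strand), chr10:69352883-69353032 (Cdk1, minus strand), chr4:118437314-118437463 (Cdc20, minus strand). The others lie at chr2:164769809-164769958 (Ube2c, plus strand), chr11:99024160-99024309 (Top2a, minus strand), chr2:119618178-119618327 (Nusap1, plus strand), chr6:66535101-66535250 (Mad2l1, plus strand). In Ccnb2 the 3 copies of CCAAT begin 87, 54 and 21 bases before the start, and in Ccnb1 the 2 copies begin 99 and 67 bases before it. Nusap1, Mad2l1 and Nuf2 were the 3 matched genes with no motif in the whole 300 bases. Ccna2, Pbk, Aurkb, Kif20a and Tpx2 had no entry in the promoter table used here.

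The libraries held 1241 cells (DBZ) and 968 cells (DMSO), with 16168229 and 13083018 UMIs (unique molecular identifiers, each a captured transcript). A median cell had 10901 and 11183 UMIs, with ranges of 5187 to 59745 and 5241 to 56915. The share of UMIs from mitochondrial genes had a median of 4.68% and 4.40%. Of markers of other tissues, 0 of 6 fibroblast genes, 1 of 6 immune genes and 1 of 4 endothelial genes were in the table, each list summing to at most 0.132 per 10000 UMIs over all cells. Paneth markers were present and summed to 273 per 10000 with DBZ and 63.2 with DMSO, and endocrine markers to 14.8 and 4.40. Cell barcodes shared by both libraries numbered 3. There was 1 library per group, so every value compares these libraries and has no replicate check, no test was possible, and intervals cover counting error only.

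All 34 mitosis genes had a lower mean level in the DBZ library. The level is the number of UMIs of the gene per 10000 UMIs of a cell, averaged over cells. Summed over the 34 genes it was 8.01 with DBZ and 12.4 with DMSO, from 18102 and 23703 UMIs. The ratio of the means was 0.644. Pooled UMIs gave a log2 change of -0.69, with an exact 95% counting interval of -0.72 to -0.67. Per gene, the change is given as log2 of (mean DBZ + 0.05) over (mean DMSO + 0.05), a scale that understates the change of low genes. Its median over the 34 genes was -0.49, and the range ran from -0.92 (Ccnb1) to -0.04 (Ttk). A gene is called lower or higher where this change is 0.32 or more in size, a limit of size and not a test. Of the 34, 26 were called lower and 0 higher. All 12921 genes with a UMI in 1% or more of the cells of a library gave a background of 10.1% called lower and 24.5% called higher, with a median of 0.10. The interval of the pooled UMIs lay below 0 for 32 mitosis genes and held 0 for Ttk and Kif20a.

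**Figure D1:**
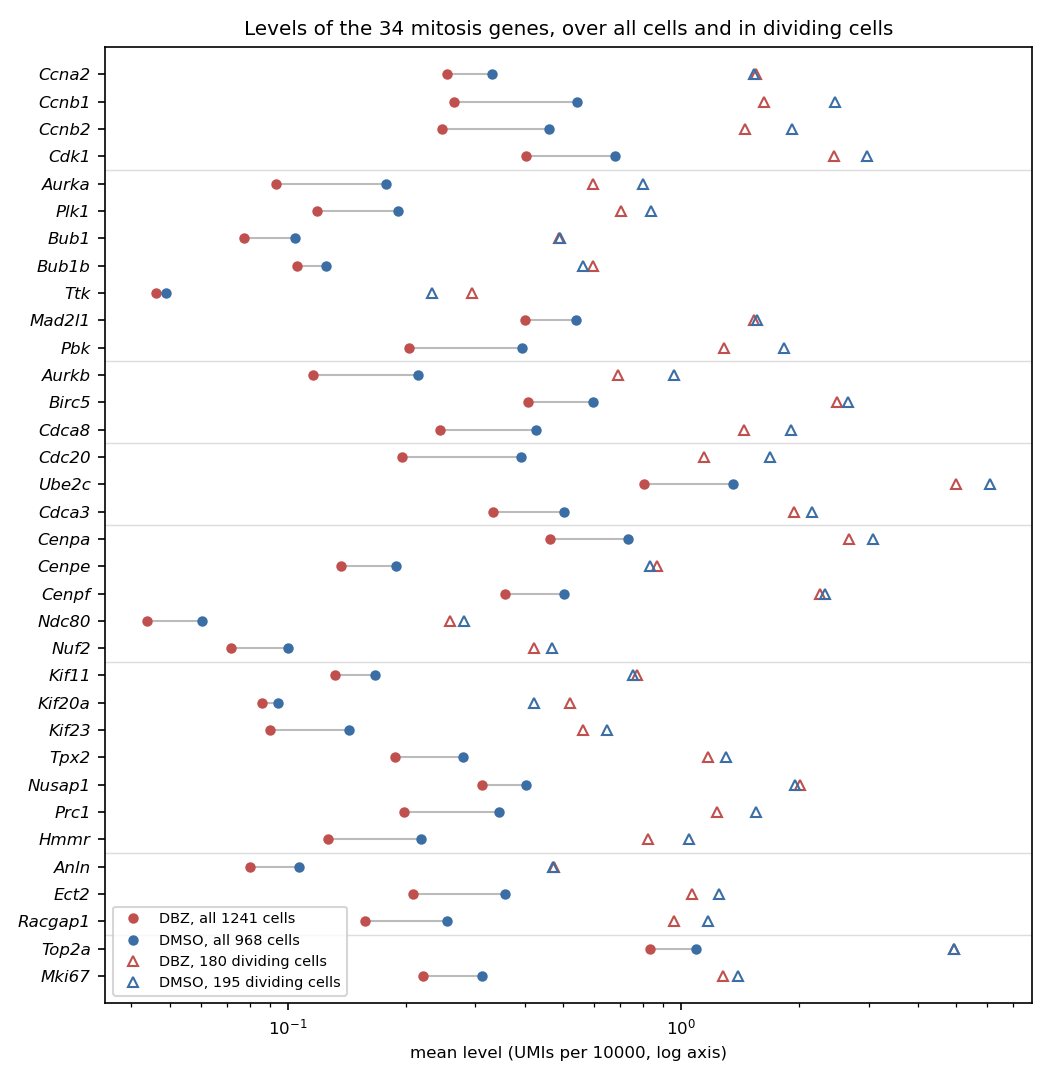
Mean level of each mitosis gene in UMIs per 10000 (log axis), over all cells (filled circles) and in dividing cells (open triangles), for the DBZ library (red) and the DMSO library (blue), with grey lines joining the libraries and separating the roles. Over all cells each of the 34 circles is further left for DBZ, whereas the triangles of genes such as Top2a (4.94 and 4.95) or Ccna2 (1.55 and 1.53) nearly coincide and those of Ccnb1 (1.62 and 2.47) stand apart.

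Most of these transcripts sat in few cells. Cells were classed as dividing where, after every cell had been thinned to 5000 UMIs, they held at least 4 different genes of a separate list of 57 G2 and M genes, none of them among the 34. This gave 180 of 1241 DBZ cells (14.5%, exact 95% interval 12.6 to 16.6%) and 195 of 968 DMSO cells (20.1%, 17.7 to 22.8%). The class is a range of a count and not a cell type: 73 DBZ and 60 DMSO cells lay 1 gene below the limit, and 28 and 30 lay exactly at it. Dividing cells held 89.8% of all UMIs of mitosis genes with DBZ and 91.9% with DMSO. They were also the deeper cells, with medians of 17369 and 19203 UMIs against 10305 and 10170 UMIs outside the class.

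The number of different mitosis genes seen in a thinned cell separated the classes in the same way. The median was 13 genes in dividing DBZ cells and 15 in dividing DMSO cells, against 0 and 1 outside the class. At least 10 of the 34 genes were present in 9.43% of DBZ cells, with an interval of 7.86 to 11.2%, and in 14.2% of DMSO cells (12.0 to 16.5%). At least 20 were seen in 36 DBZ cells (2.90%, 2.04 to 3.99%) and 54 DMSO cells (5.58%, 4.22 to 7.22%), and all of these were in the dividing class. As a share of the 180 and 195 dividing cells, the intervals were 14.4 to 26.6% (DBZ) and 21.5 to 34.5% (DMSO), which overlap. Outside the class, 2 DBZ cells and 0 DMSO cells held at least 10. No mitosis gene was seen in 52.1% of thinned DBZ cells and 37.5% of thinned DMSO cells.

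**Figure D2:**
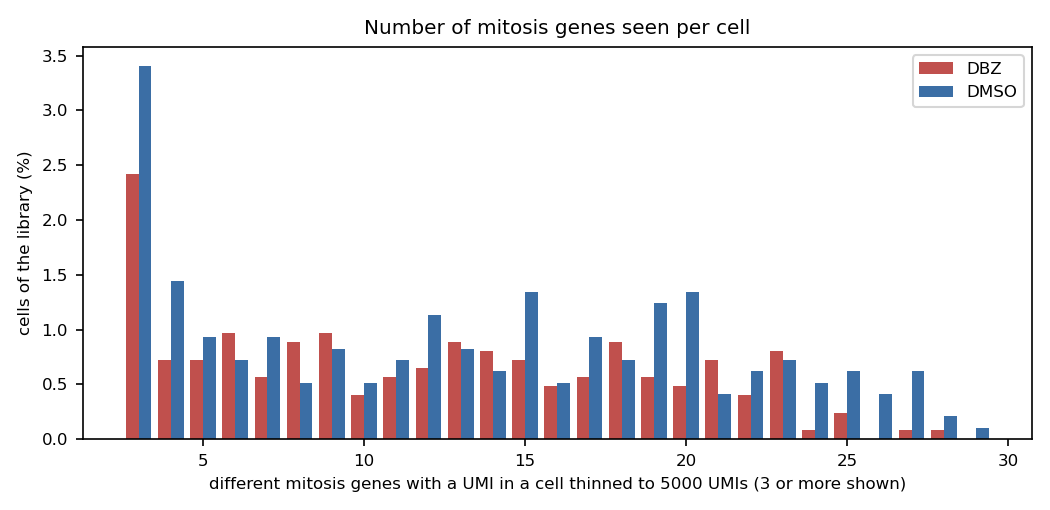
Share of the cells of each library (vertical axis, %) by the number of different mitosis genes with a UMI after thinning to 5000 UMIs (horizontal axis, from 3 upward), DBZ in red and DMSO in blue. DMSO cells reach up to 29 genes and DBZ cells up to 28, and 5.58% of DMSO cells against 2.90% of DBZ cells hold 20 or more.

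Part of the difference in the share of dividing cells moved with the makeup of the libraries. Defensin-rich cells (Defa genes at 100 or more per 10000 UMIs) numbered 235 with DBZ (18.9%) and 33 with DMSO (3.41%). Of these, 15 DBZ cells (6.38%, 3.62 to 10.3%) and 6 DMSO cells (18.2%, 6.98 to 35.5%) were dividing. Endocrine cells (at least 4 endocrine genes after thinning) numbered 223 and 43, and 13 (5.83%, 3.14 to 9.76%) and 4 (9.30%, 2.59 to 22.1%) of them were dividing. Without both kinds of cell the dividing share was 17.0% with DBZ (14.6 to 19.6%) and 20.7% with DMSO (18.1 to 23.5%). The gap was then 3.67 percentage points in place of 5.64, and the intervals overlap. The 34 genes had a median of -0.35 in the remaining cells, with summed levels of 9.15 and 12.9 and 21 genes called lower. Ccna2 (-0.21), Cenpe (-0.22), Mad2l1 (-0.24), Nusap1 (-0.18) and Top2a (-0.26) were then no longer called.

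The cyclins and Cdk1 had a summed level of 1.17 with DBZ and 2.01 with DMSO, and all 4 genes were called lower. Ccnb1, one of the B cyclins that activate Cdk1 (chromosome 13, 100778650 to 100786570, minus strand, mm10), had a mean of 0.264 with DBZ and 0.544 with DMSO. Its log2 change of -0.92 was the lowest of the 34, and 12.4% of DBZ cells and 20.9% of DMSO cells held a UMI of it. The other B cyclin, Ccnb2, had 0.247 and 0.461, a log2 change of -0.78. Cdk1, the kinase that drives entry into mitosis, had 0.403 and 0.679, a log2 change of -0.69. Ccna2, the cyclin active from S phase to early mitosis, had the smallest change of this group, with 0.254 and 0.330 (-0.32).

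The mean of Ccnb1 in dividing cells was 1.62 with DBZ and 2.47 with DMSO, and that of Ccnb2 was 1.45 and 1.92. Cdk1 had 2.45 and 2.97, whereas Ccna2 had 1.55 and 1.53. Ccnb1 and Ccnb2 were thus lower also among dividing cells (log2 changes of -0.59 and -0.39), Cdk1 by less than the limit (-0.27), and Ccna2 stood at 0.02. With every cell thinned at random to 5000 UMIs (1 draw), Ccnb1 had -0.69 and Ccnb2 -0.20, so that Ccnb2 was no longer called lower. Pooled UMIs gave -0.46 for Ccnb1 (-0.60 to -0.31), -0.37 for Ccnb2 (-0.53 to -0.20), -0.24 for Cdk1 (-0.37 to -0.11) and -0.05 for Ccna2 (-0.22 to 0.12).

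Among the mitotic kinases and checkpoint genes 4 of 7 were called lower over all cells. Pbk, a mitotic protein kinase, had 0.203 and 0.393 (log2 -0.81), and Aurka, the kinase of centrosomes and spindle poles, 0.0930 and 0.178 (-0.67). Plk1, the Polo kinase that acts from mitotic entry to cytokinesis, had 0.119 and 0.190 (-0.51). Mad2l1, the checkpoint protein that holds back Cdc20 until chromosomes are attached, had 0.402 and 0.541 (-0.39). The other checkpoint kinases were not called lower, with Bub1 at 0.0771 and 0.104 (-0.28), Bub1b at 0.105 and 0.125 (-0.17) and Ttk at 0.0462 and 0.0490 (-0.04). These genes are low, so the pseudocount weighs on them, and with 0.01 in its place Bub1 had -0.39, Bub1b -0.23 and Ttk -0.07. Pooled UMIs, in which deeper cells weigh more, gave -0.54 for Bub1, -0.51 for Bub1b and -0.23 for Ttk, against -0.50 for Mad2l1. The pooled values thus differ by more than the pseudocount. In dividing cells Pbk (1.28 and 1.82, log2 -0.49) and Aurka (0.596 and 0.802, -0.40) were again called lower. Bub1 (0.491 and 0.492) and Mad2l1 (1.53 and 1.56) had nearly the same mean in both libraries there. Bub1b had 0.597 and 0.562 (0.08), but 0.38 after thinning, where it was called higher. Ttk had 0.295 and 0.232, the highest change of the 34 genes in dividing cells (0.29), from 97 and 93 UMIs with a pooled interval of -0.08 to 0.77.

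The chromosomal passenger complex, which corrects wrong attachments of chromosomes and then helps to split the cell, had 3 of 3 genes lower. Aurkb, its kinase, had 0.116 and 0.215 (log2 -0.68), its subunit Cdca8 (borealin) 0.244 and 0.427 (-0.70), and Birc5 (survivin) 0.408 and 0.598 (-0.50). Within dividing cells Aurkb (0.692 and 0.958, log2 -0.44) and Cdca8 (1.45 and 1.90, -0.38) were again called lower. Birc5 was not, with 2.49 and 2.65 (-0.09) and a pooled interval that held 0 (-0.18 to 0.08), and -0.23 after thinning.

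The genes of the anaphase-promoting complex and ubiquitination were lower as well, 3 of 3 over all cells. Cdc20, the activator of that complex (chromosome 4, 118432901 to 118437352, minus strand), had 0.195 and 0.391, the second lowest change of the 34 (-0.85). Ube2c, the enzyme that hands ubiquitin to the complex (chromosome 2, 164769898 to 164778822, plus strand), had 0.804 and 1.36 (-0.72), from 1916 and 2553 UMIs. Cdca3, a protein of ubiquitination at mitotic entry, had 0.333 and 0.505 (-0.53). In dividing cells Cdc20 had 1.15 and 1.69 (-0.54, pooled interval -0.68 to -0.32). Ube2c had 5.01 and 6.11 there (-0.28, pooled -0.23 to -0.05), and Cdca3 1.94 and 2.15 (-0.15).

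Of the kinetochore and centromere genes 3 of 5 were called lower over all cells, and 0 of 5 in dividing cells. Of all genes tested in dividing cells 10.8% were called lower, so 0 of 5 is near the background. Cenpa, the histone that marks centromeres, had 0.463 and 0.734 over all cells (-0.61) and 2.68 and 3.08 in dividing cells (-0.20). Cenpf, a large kinetochore protein made in G2, had 0.357 and 0.505 (-0.45), and 2.26 and 2.33 in dividing cells. Cenpe, the kinesin that moves chromosomes to the spindle's middle, had 0.137 and 0.189 (-0.35), and 0.871 and 0.835 in dividing cells (0.06). After thinning, Cenpe turned to -0.37 in dividing cells and was called lower there. Nuf2 and Ndc80, which together grip the microtubule, were sparse, with changes of -0.30 and -0.24 from at most 185 UMIs per library.

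The spindle genes had 5 of 7 members called lower over all cells and 1 in dividing cells, where 10.8% of all genes were called lower. The lowest were Prc1, which bundles the microtubules of the central spindle (0.198 and 0.345, log2 -0.67), and Hmmr, a protein of spindle poles (0.127 and 0.218, -0.60). Tpx2 (0.187 and 0.278), the partner that activates Aurora A, and Kif23 (0.0902 and 0.143), a kinesin of the midzone, had -0.47 and -0.46. Nusap1, which binds microtubules near chromosomes, had 0.311 and 0.403 (-0.33). The kinesins Kif11 (0.132 and 0.166, -0.25) and Kif20a (0.0858 and 0.0946, -0.09) were below the limit. In dividing cells Hmmr had 0.825 and 1.05 (-0.33). Nusap1 had 2.01 and 1.95 there, and was the 1 gene of the 34 whose pooled interval lay above 0 (0.01 to 0.31). Kif20a had 0.523 and 0.422 (0.28, pooled -0.06 to 0.58). Both turned below 0 after thinning, to -0.04 for Nusap1 and -0.12 for Kif20a.

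Of the genes of cytokinesis and chromosome structure 4 of 5 were called lower over all cells. Ect2, which activates RhoA at the division plane, had 0.208 and 0.357 over all cells (-0.66) and Racgap1, its partner, 0.157 and 0.253 (-0.55). Anln, the scaffold of the contractile ring, had 0.0801 and 0.107 (-0.27). Top2a, the topoisomerase that untangles sister chromosomes, had 0.833 and 1.09 over all cells (-0.37) and Mki67, the proliferation marker that coats mitotic chromosomes, 0.221 and 0.311 (-0.41). In dividing cells Top2a had 4.94 and 4.95 from 1628 and 1973 UMIs, with a pooled interval of -0.09 to 0.10. Mki67 had 1.28 and 1.40 (-0.12) and Anln 0.476 and 0.472 (0.01). Racgap1 (0.962 and 1.17, -0.27) and Ect2 (1.07 and 1.252, -0.22) were lower by less than the limit. Of these 5 genes, 0 were called lower in dividing cells, near the 10.8% of all genes tested there. After thinning, Mki67 had -0.37 in dividing cells and was called lower, and Top2a had -0.18. Pooled over the 3 cytokinesis genes the log2 change in dividing cells was -0.19 (-0.31 to -0.06), and over the 2 genes of chromosome structure -0.01 (-0.09 to 0.08).

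Within dividing cells as a whole, 26 of the 34 genes had a log2 change below 0 and 8 above 0, with a median of -0.14. The summed level was 47.6 in 180 DBZ cells and 54.6 in 195 DMSO cells, and pooled UMIs gave a log2 change of -0.14 (-0.17 to -0.11). Called lower were 8 genes, namely Ccnb1, Cdc20, Pbk, Aurkb, Aurka, Ccnb2, Cdca8 and Hmmr, and 0 were called higher. Of 12990 genes tested in dividing cells, 10.8% were called lower and 27.6% higher, with a median of 0.12. The count of 8 became 13 without the 5% of cells with most UMIs in each library and 14 after subtracting that median. Subtracting it shifts every gene down alike. The background above is for the main setting, so the counts of the alternatives have no share of all genes beside them. After thinning 11 were called lower and Bub1b higher, with Ccnb2 no longer called and Plk1, Prc1, Cenpe and Mki67 added. Of the 8 genes, 6 were called lower under each of 11 alternatives, the exceptions being Ccnb2 and Hmmr. The share of dividing cells that also held at least 6 S phase genes was 51.7% with DBZ and 63.1% with DMSO, and the part of that difference in these values was not tested.

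**Figure D3:**
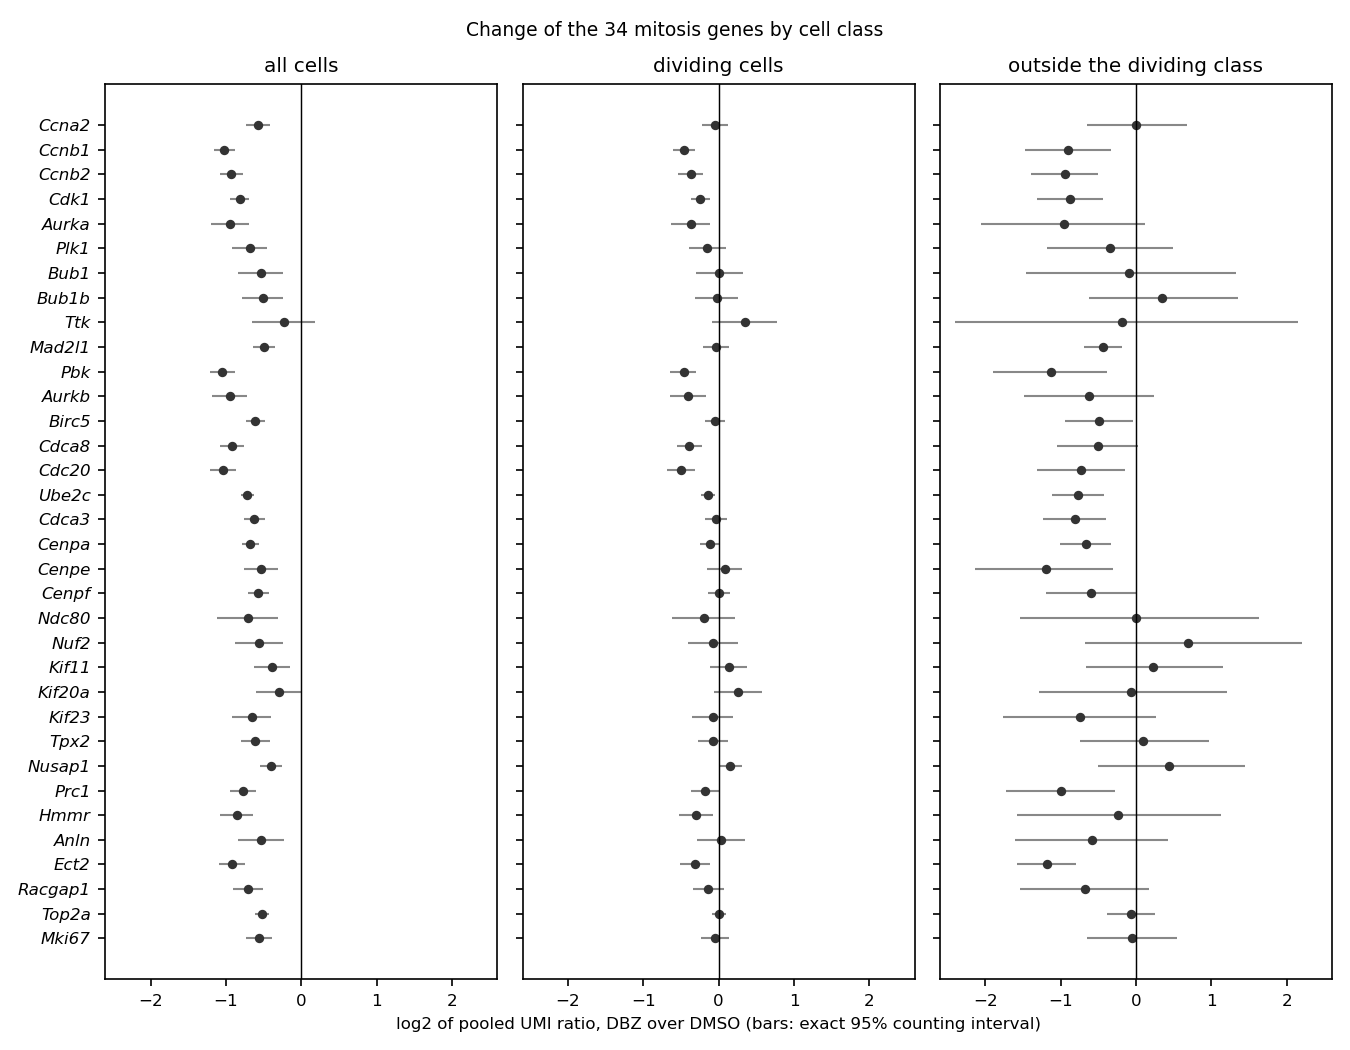
Log2 ratio of pooled UMIs, DBZ over DMSO (horizontal axis), for each mitosis gene over all cells (left), in dividing cells (middle) and outside the dividing class (right), with bars for the exact 95% counting interval. In the left panel 32 intervals lie below 0, in the middle panel 12 lie below and 1 above 0, and in the right panel the intervals are wide and 21 hold 0.

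Outside the dividing class the levels were low and 24 of the 34 genes were below 0. Their summed level was 1.29 in 1061 DBZ cells and 1.82 in 773 DMSO cells, from 1852 and 1926 UMIs, and pooled UMIs gave a log2 change of -0.56 (-0.66 to -0.47). With the pseudocount the median was -0.17, and 10 genes were called lower and 0 higher. The 32 genes that passed the filter on low values did not include Ttk and Ndc80. Among the 12811 genes tested there, 10.3% were called lower and 25.1% higher. The count depended on the pseudocount, being 19 at 0.01 and 1 at 0.2. Endocrine cells outside the class gave a summed level of 0.831 (210 DBZ cells, 175 UMIs, median depth 8748 UMIs) and 1.36 (39 DMSO cells, 49 UMIs, median depth 7813 UMIs). Defensin-rich cells outside it gave 1.17 (220 DBZ cells, 376 UMIs) and 2.49 (27 DMSO cells, 116 UMIs). The remaining cells outside the class gave 1.39 and 1.81, which is below the defensin-rich cells in the DMSO library. They include cells with at least 6 S phase genes, and without those the summed levels were 1.22 (DBZ) and 1.57 (DMSO). The part of free RNA in these low levels was not tested.

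Mad2l1 and Ect2 were the least restricted to dividing cells. Dividing cells held 64.1% (DBZ) and 70.0% (DMSO) of the UMIs of Mad2l1, and 79.8% and 78.9% of those of Ect2, whereas Nusap1 had 96.0% and 98.1% and Hmmr 95.8% and 97.6%. Outside the class the mean of Mad2l1 was 0.210 with DBZ and 0.284 with DMSO (log2 -0.36, pooled -0.69 to -0.19). It was no longer called lower without defensin-rich and endocrine cells (-0.20). The mean of Ect2 outside the class was 0.0616 and 0.131 (-0.70, pooled -1.58 to -0.80), the lowest change of the 34 there, and -0.30 after thinning, where it was not called. The expected share of cells with a Mad2l1 UMI at 5000 UMIs was 9.93% and 12.9% outside the class, against 4.16% and 3.61% in endocrine cells outside it and 5.03% and 5.29% in defensin-rich cells outside it. Ect2 had 2.88% and 5.85% outside the class, 1.81% and 2.37% in those endocrine cells and 3.35% and 5.20% in those defensin-rich cells, so it did not stand above both kinds of cell in the DBZ library. For Ube2c the corresponding shares were 4.23% and 7.43%, against 3.69% and 9.44% in endocrine and 3.53% and 16.7% in defensin-rich cells, so in the DMSO library it stood below both. The DMSO endocrine cells held 2 UMIs each of Mad2l1 and Ect2, and the DMSO defensin-rich cells 5 and 6.

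The difference in mean level over all cells can be divided exactly into a part from the share of dividing cells and parts from the level inside and outside the class. For the summed level, which was 4.43 per 10000 lower with DBZ, the share of dividing cells accounted for 63.0%, the level in dividing cells for 27.1% and the level outside for 9.89%. The part from the share exceeded 50% for 27 of the 34 genes. It was 104% for Top2a, whose level in dividing cells was nearly the same in both libraries. Ccnb1 and Cdc20 differed, with 40.3% and 39.4% from the share and 52.1% and 47.7% from the level in dividing cells. For Mad2l1 43.7% and for Ect2 38.3% came from the level outside the class. Without defensin-rich and endocrine cells the part from the share was 48.5% of a summed difference of -3.75. The level in dividing cells then made up 42.2%. With at least 3 list genes as the limit these parts were 50.1% and 40.8%. The class is set by a count of G2 and M transcripts, so a lower level of these can move cells below the limit. Share and level can therefore not be told apart fully by this division.

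**Figure D4:**
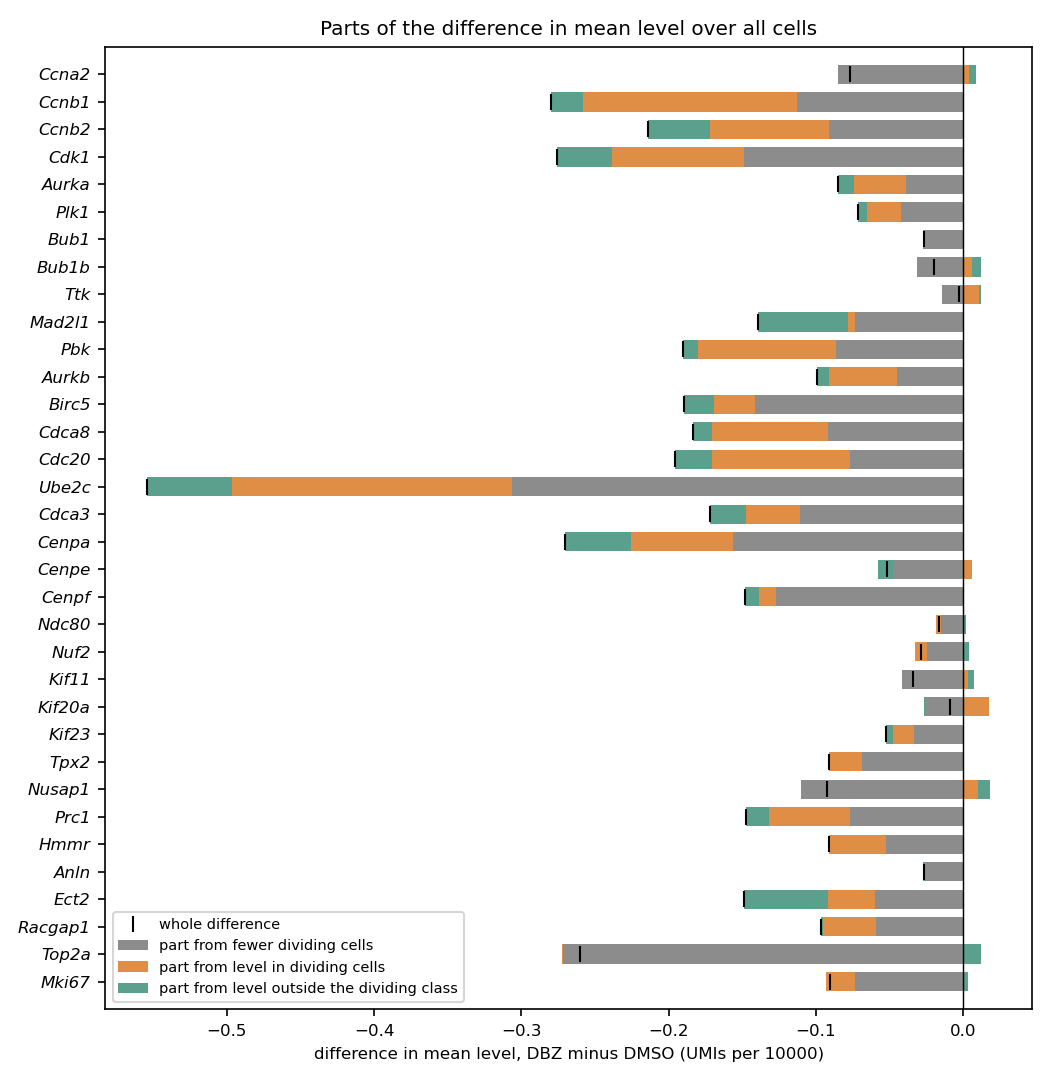
Difference in mean level over all cells, DBZ minus DMSO, in UMIs per 10000 (horizontal axis) for each mitosis gene, drawn as stacked parts from the share of dividing cells (grey), the level in dividing cells (orange) and the level outside the class (green), with a black tick at the whole difference. Grey makes up most of the bar for Top2a (104%), whereas orange makes up 52.1% for Ccnb1.

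Across dividing cells the mitosis genes varied together. Over the 561 pairs the median Pearson correlation of log levels was 0.41 in 180 DBZ cells and 0.49 in 195 DMSO cells, and 405 pairs were above 0.3 in both libraries. All cells of a library share 1 preparation and the levels carry the sampling noise of each cell's depth, so these are descriptions. The closest pairs were Ccnb1 with Ube2c (0.80 and 0.82) and Ccnb2 with Cenpa (0.77 and 0.86). Cdc20 went with Ccnb1 (0.71 and 0.74) and Ube2c (0.68 and 0.77), but less with Top2a (0.32 and 0.51) and Mki67 (0.27 and 0.45). Sparse genes such as Ndc80 and Nuf2 had low values (0.36 and 0.09 with each other).

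Among 9607 other genes with a UMI in 5% or more of cells in both libraries, the 10 with the highest correlation to the summed mitosis genes across all cells in each library gave 13 names, 7 of them in both. Of the 13, 6 are on the list of G2 and M genes and 7 are not. First in both was 2810417H13Rik (0.79 in 1241 DBZ cells and 0.82 in 968 DMSO cells). Hmgb2 (0.76 and 0.79), a chromatin protein, had rank 2 with DBZ and 3 with DMSO. Of the core subunits of condensin, Smc2 (0.72 and 0.80) had ranks 5 and 2, and Smc4 (0.69 and 0.77) rank 6 in both. Tuba1b, an alpha-tubulin, had 0.72 and 0.78, although its mean level was 1.97 with DBZ and 2.01 with DMSO (-0.03). The histone gene Hist1h2ap had 0.67 and 0.71. The other genes named were Spc25, Knstrn, Nek2, Lockd, Cks2, Spc24 and Tacc3, of which Tacc3 had the lowest log2 change (0.132 and 0.267, -0.80).

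Other genes of the cell cycle were counted from lists that do not overlap the 34. Of the 57 G2 and M genes that set the dividing class, 26 were called lower and 0 higher over all cells, with a median of -0.29. Bora, the activator of Aurora A, had 0.0693 and 0.177 (-0.93), and Cks2, a Cdk-binding subunit, 1.34 and 1.89 (-0.48), whereas Hjurp, the chaperone of Cenpa, had 0.411 and 0.389 (0.07). Of 46 S phase genes 30 were lower and 0 higher, with a median of -0.41. The background for both lists was 10.1% called lower and 24.5% called higher among all genes tested. Cells with at least 6 S phase genes that were not dividing made up 3.95% of cells with DBZ (2.94 to 5.19%) and 8.57% with DMSO (6.89 to 10.5%). In that replicating class the summed level of mitosis genes was 4.00 and 3.70.

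Of 22 factors that control mitosis genes, 2 were called lower over all cells and 2 higher, with a median of -0.01. Of all genes tested 10.1% were called lower and 24.5% higher, so the count of lower ones is near the background. The lower ones were Mybl2, which encodes B-Myb (0.0372 and 0.0770, log2 -0.54), and Nfyc, a subunit of NF-Y (0.190 and 0.258, -0.36). The higher ones were the retinoblastoma gene Rb1 (0.170 and 0.0986, 0.57) and its relative Rbl2, a subunit of DREAM (0.136 and 0.0956, 0.36). Rbbp4, a histone-binding subunit of DREAM, had 1.58 and 1.55 (0.03). In dividing cells Mybl2 had 0.178 and 0.305 (-0.64). Foxm1, the gene of FoxM1, had 0.0449 and 0.0595 over all cells (-0.21, pooled -0.58 with an interval of -0.98 to -0.19), and 0.262 and 0.277 in dividing cells (-0.07). E2f1, a factor of S phase entry, had 0.102 and 0.139 over all cells, just short of the call, with a pooled change of -0.58 (-0.87 to -0.30). Both were named after their values were seen.

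Of 34 genes of mitotic entry and exit that are not among the mitosis genes, 3 were called lower and 7 higher, with a median of 0.07. These counts are near the background of 10.1% lower and 24.5% higher, and the values that follow describe single genes. Ccnd1, the G1 cyclin and a known Wnt target, had 0.426 and 1.14 (-1.32), and Cdk2, the kinase of S phase entry, 0.194 and 0.309 (-0.56). The third lower gene was the inhibitory kinase Pkmyt1 (0.0701 and 0.122, -0.52), named after its values were seen. Cdc25a, a phosphatase that activates cyclin-dependent kinases, had 0.177 and 0.104 (0.56). Anapc1, the largest subunit of the anaphase-promoting complex, had 0.347 and 0.222 (0.54). Cdk4, the partner of D cyclins, had 4.21 and 4.33 (-0.04). Among 7 inhibitors of cyclin-dependent kinases, Cdkn1a (p21) had 1.78 and 3.12 (-0.79), Cdkn2d 0.105 and 0.147 (-0.35) and Cdkn1c (p57) 2.40 and 1.73 (0.46). Cdkn1b (p27) had 0.291 and 0.241 (0.23).

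The share of dividing cells was also counted in other states of the organoid cells. Sets of 2 to 5 genes that mark states were summed after thinning, and cells were called high where they were in the top 20% of their library, ties included, and above 0. In both libraries the dividing share was lower among cells high in Mt3, Spock2 and Pycr1 (4.07% against 17.4% of the other DBZ cells, 12.1% against 24.3% of the other DMSO cells). The limit for that set was 6 UMIs with DBZ but 1 UMI with DMSO, where 331 of 968 cells counted as high. Those cells were also shallower than the others, with medians of 9555 and 11310 UMIs (DBZ) and 10086 and 11745 UMIs (DMSO). It was higher among cells high in Ly6a, Reg3b and Reg3g, genes of the fetal-like or regenerating epithelium (27.0% against 12.3%, and 35.2% against 17.5%). The same held for Amica1, Fgfbp1 and Sfrp5 (27.8% against 12.8%, and 32.2% against 16.0%). Cells high in the Ly6a and Amica1 sets were deeper, with medians of 13733 to 15004 UMIs against 10433 to 10645 in the others, and the part of depth was not tested.

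By sign alone, the direction was the same in both libraries for 7 of the 11 sets and opposite for 4. In each of these 4 the intervals of high and other cells overlapped in the DBZ library, the DMSO library or both. The differences between libraries were not tested. Of DBZ cells high in Cyp2c55 and Msx3, 17.4% were dividing against 13.4% of the others, while in the DMSO library the shares were 10.0% and 21.4%. For Gdf15, Areg and Htra1 the shares were 22.5% and 11.5% with DBZ. With DMSO they were 19.4% (14.5 to 25.1%) and 20.4% (17.5 to 23.5%). The limit for that set was 1 UMI (DBZ) and 3 UMIs (DMSO). Of DMSO cells high in the stem cell genes Lgr5 and Smoc2, 30.3% were dividing (24.9 to 36.1%) against 16.1% of the others, while in the DBZ library the shares were 16.1% (12.2 to 20.6%) and 14.0%. Of DMSO cells high in the immediate early genes Fos, Egr1, Jun, Atf3 and Nr4a1, 6.06% were dividing (3.17 to 10.3%) against 23.8%, while in the DBZ library the shares were 11.2% (7.68 to 15.6%) and 15.4%. The limit was 2 UMIs (DBZ) and 3 UMIs (DMSO) for the stem cell genes. It was 11 and 25 UMIs for the immediate early genes, so that high does not mean the same level in both libraries. Median depths of high and other cells were 12698 and 10667 UMIs (DMSO) and 11138 and 10845 UMIs (DBZ) for the stem cell genes. For the immediate early genes they were 9368 and 11982 UMIs (DMSO) and 10019 and 11310 UMIs (DBZ). Depth differed for the Cyp2c55 and Gdf15 sets as well, and its part was not tested.

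**Figure D5:**
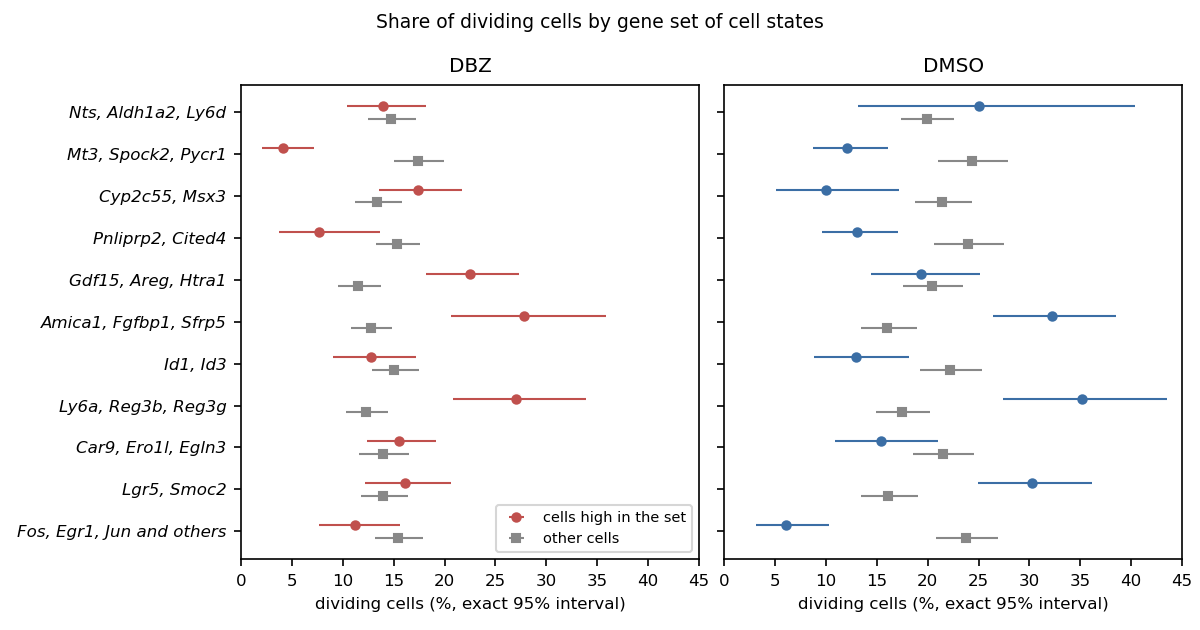
Share of dividing cells (horizontal axis, %, with exact 95% intervals) among cells high in a gene set (coloured circles) and among the other cells (grey squares), for the DBZ library (left) and the DMSO library (right). The Mt3 set is low in both panels (4.07% and 12.1%), the Ly6a set is high in both (27.0% and 35.2%), and the Lgr5 set stands apart from the other cells in the DMSO panel (30.3% against 16.1%).

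All 34 genes are annotated as protein coding, on 16 chromosomes. Another gene of the table overlaps 5 of them: Exosc9 overlaps Ccna2, Elovl1 overlaps Cdc20, Cdc23 overlaps Kif20a, Oip5 overlaps Nusap1 and Rccd1 overlaps Prc1. Each of these overlapping genes lies on the opposite strand. Whether the counting used the strand is not stated in the labels, and the values of these 5 are less certain only if it did not.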

How the data were processed

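Cells of both libraries were captured on a 10x droplet chip with UMI barcodes, aiming at 3000 per sample, and sequenced to a mean of 113705 (DBZ) and 115754 (DMSO) reads per cell, per the labels. Cell Ranger 2.1.1, Seurat (no version) and mm10 were used, per the submitters' processing notes, while cell and gene filters are not stated. The authors deposited natural log (ln) values of 1 plus the UMIs of a gene per 10000 UMIs of the cell. That scale was read from the values: exp(value) - 1 sums to 10000 in every cell, and all 7553435 values above 0 are whole multiples of 1 step per cell (tolerance 0.01), so UMIs could be recovered. Columns starting with CTRL were taken as DMSO and those with GSI as DBZ, from the meaning of the names.

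The 34 genes and all lists were chosen with earlier results of these data known. Values were turned back to levels per 10000, each cell weighted equally, and compared on a log2 scale with a pseudocount of 0.05. UMI levels are not divided by gene length and were compared only between libraries. Pooled UMIs have exact conditional 95% intervals and shares of cells exact Clopper-Pearson intervals. Genes tested had a UMI in at least 1% of cells. Thinning to 5000 UMIs (seed 1) left out 0 cells, and expected shares at that depth are exact hypergeometric values. Doublets were not called, and an alternative leaves out the 5% deepest cells. Code in Python 3.11.15 (numpy 2.4.6, pandas 2.3.3, scipy 1.17.1) was tested on simulated cells. Named are all 34 genes, from each other list the most expressed, the 2 lowest and the 2 highest genes that the text uses, and the 10 most similar genes per library. Foxm1, E2f1 and Pkmyt1 were added after their values were seen.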

Additional observations from a re-analysis of the deposited data

How the results depend on the processing

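Over all cells the median log2 change of the 34 genes (-0.49) became -0.57 with a pseudocount of 0.01, -0.33 with 0.2, -0.64 from pooled UMIs, -0.56 after thinning, -0.59 minus the median of all genes tested, -0.51 without the 5% deepest cells and -0.35 without defensin-rich and endocrine cells. The count called lower (26) ran from 18 to 32. The background shares of all genes given above are for the main setting and not for these alternatives. Within dividing cells the median (-0.14) became -0.078 from pooled UMIs, -0.21 after thinning, -0.26 with 14 genes lower minus the overall median, -0.24 with 13 lower without the 5% deepest cells, -0.18 without defensin-rich and endocrine cells and -0.24 with 13 lower where 3 list genes sufficed. Outside the class the median (-0.17, 10 lower) became -0.35 with 19 lower at a pseudocount of 0.01, -0.055 with 1 lower at 0.2, -0.55 with 21 lower from pooled UMIs and -0.28 minus the overall median. The dividing share (14.5% DBZ, 20.1% DMSO) was 20.4% and 26.3% with at least 3 list genes, 11.3% and 15.6% with at least 6, and 28.0% and 38.2% with list genes counted at full depth. It was 12.6% and 17.1% without the 5% deepest cells and 17.0% and 20.7% without defensin-rich and endocrine cells. The DBZ share was the lower of the pair in each of these settings and with another thinning seed. The cause of these shifts was not tested. A second seed, added after the data were seen, gave 7 genes lower in dividing cells and 11 outside. Dropping the filter left the members' values as they were, since all 34 were described. Over all cells Bub1b stood at 0.09 after thinning, the 1 gene of the 34 above 0 in any setting listed there.

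No paired analysis was possible because each group has 1 library. Leaving out a library would empty its group. At these depths, genes with under 200 UMIs over all cells in each library (Ttk, Ndc80, Nuf2 and Kif20a) had pooled intervals that held 0 in dividing cells. The same was true of 21 of the 34 genes in all, among them Top2a with 1628 and 1973 UMIs in dividing cells.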
